A study of Mus musculus with 6 samples.

Results

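Importin alpha proteins are adaptors of nuclear import. They bind a nuclear localisation signal in a cargo protein, and importin beta (Kpnb1) carries the adaptor and its cargo through the nuclear pore. In the nucleus the GTPase Ran releases the cargo, and the exportin Cse1l returns importin alpha to the cytoplasm. Mammals have several importin alpha genes with overlapping cargo preferences, and Kpna2 is the one best known for high levels in embryonic and dividing cells. The genes described here are the importin alphas Kpna1, Kpna2, Kpna3, Kpna4 and Kpna6, importin beta Kpnb1, and Gm10184, an intronless copy of Kpna2. These 7 genes, of 54393 in the table, were taken by symbol. The importins were named by family, and Gm10184 was added because its values moved opposite to those of Kpna2 between the genotypes, so the difference between genotypes in that pair is described without a test.

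Total RNA of the tibialis anterior, a shin muscle, was sequenced from adult mice after depletion of ribosomal RNA. The wild-type (WT) group had 3 muscles (replicates 1, 3 and 4, with C57 in their titles), and the other group had 3 muscles with the genotype Dock3 KO (replicates 1, 2 and 3). Dock3 is an exchange factor that activates the GTPase Rac. The labels give no strain, sex or exact age and do not describe the Dock3 allele. They also do not say whether each muscle came from a separate animal, so the spread between samples may be technical in part.

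The genotype labels were checked on Dock3. The WT muscles had 169, 161 and 118 normalized counts of it, against 22.4, 1.78 and 1.54 in replicates 1, 2 and 3 of Dock3 KO. The groups were apart, and Dock3 KO replicate 1 was the highest of its group. The sums of normalized counts ran from 23520223 to 33393950 per sample. The pair of abundant genes Gm42418 and Lars2 took 17.9% and 20.3% of the sum in Dock3 KO replicates 1 and 2 and between 3.00% and 3.64% in the other 4 samples. Markers of muscle fibres (Acta1, Ckm, Myh4, Tnnt3, Mb, Des and Ttn) summed to 1530000 to 1910000 normalized counts in WT and to 1623000 to 1964000 in Dock3 KO. Of 43 markers of fibres and 8 other cell types, 39 were abundant enough for the test described below, and 1, the fibroblast gene Col1a1, passed it, higher in Dock3 KO. Summed macrophage markers were lower in Dock3 KO (2243 to 2893) than in WT (2896 to 3141) by a small margin, with 0 of 5 passing; the part of these cells in the values below was not tested.

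Gm10184 and Kpna2 are almost the same sequence, and the letters that differ within their aligned stretch are shown so that the closeness of the copies can be seen. Kpna2 (ENSMUSG00000018362) spans bases 106988629 to 106999541 of chromosome 11 (GRCm38, GENCODE M21), on the minus strand, and its coding transcript of 2054 bases has 11 exons. Gm10184 (ENSMUSG00000066878) spans bases 89908462 to 89910449 of chromosome 17, also on the minus strand, in 1 exon of 1988 bases. GENCODE annotates it as a protein-coding retrogene, the product of a messenger RNA copied back into the genome, and RefSeq lists it as a pseudogene. Neither gene overlaps another annotated gene. The transcripts align over 1968 bases without a gap and differ at 2 of them (99.9% identity). Counted from the A of the Kpna2 start codon, with the Kpna2 base first, the differences are A696G and C741T. Both lie in exon 7 of Kpna2, at positions 106991303 and 106991258 of chromosome 11, 45 bases apart, and both are synonymous. Each gene has an open coding sequence of 529 codons. Another locus, Gm10259 (ENSMUSG00000069083), is a processed pseudogene on chromosome 3 from 25211016 to 25212605. It carries the same 2 changes, which therefore do not set Gm10184 apart from it, and C90T, and differs from Kpna2 at 3 of 1590 bases. The window of 96 bases around both positions is printed 5′ to 3′ on the minus strand, with the differing bases in capitals. It covers chr11:106991233-106991328 for Kpna2, chr17:89909551-89909646 for Gm10184 and chr3:25211840-25211935 for Gm10259, all in coding sequence or, for Gm10259, its pseudogene counterpart:
Kpna2: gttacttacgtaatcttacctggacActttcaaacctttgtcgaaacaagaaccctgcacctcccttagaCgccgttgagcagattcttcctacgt
Gm10184: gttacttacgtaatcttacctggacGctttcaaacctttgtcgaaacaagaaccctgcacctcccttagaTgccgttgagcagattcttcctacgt
Gm10259: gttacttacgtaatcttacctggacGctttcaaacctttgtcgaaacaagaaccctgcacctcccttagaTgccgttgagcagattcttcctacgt

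Outside the aligned stretch, Kpna2 has 80 bases at its 5′ end and 6 at its 3′ end that Gm10184 lacks, and Gm10184 has 7 and 13 of its own. The longest run without a difference is 1101 bases. Of the 2024 windows of 31 bases in the Kpna2 transcript, 118 (5.83%) were found in the transcripts of no other annotated gene. For Gm10184 the number was 20 of 1958 (1.02%). With windows of 100 bases the shares were 11.8% for Kpna2 and 1.06% for Gm10184. The other importins are far more distinct. All windows of 31 bases in Kpna1, Kpna3 and Kpna6 were unique, as were 99.2% of those of Kpna4 and 93.1% of those of Kpnb1, where the gene Gm11583 overlaps on the other strand.

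**Figure D1:**
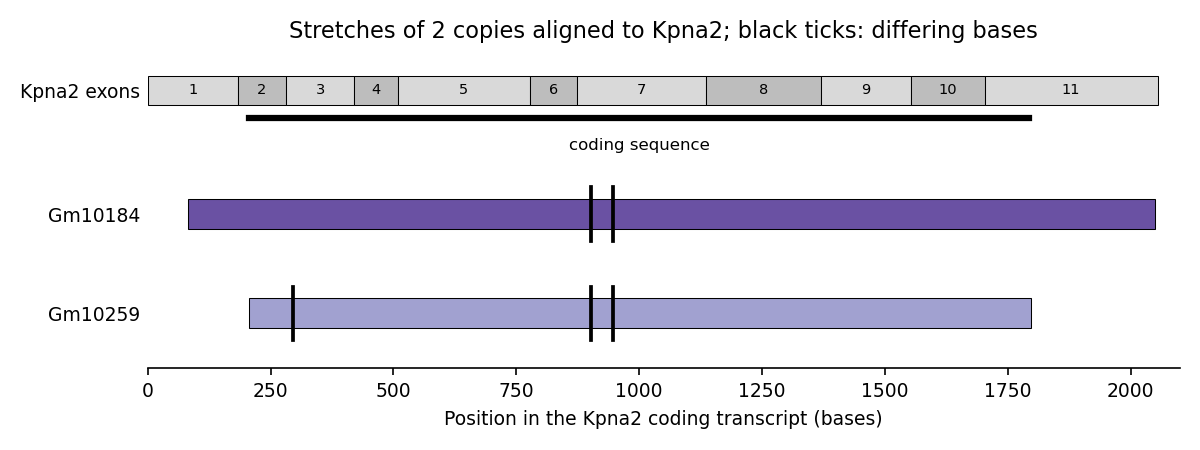
The 11 exons of the Kpna2 coding transcript, its coding sequence (black line) and the aligned stretches of Gm10184 and Gm10259, against position in the Kpna2 transcript in bases. Black ticks mark the 2 bases that differ in Gm10184 and the 3 that differ in Gm10259, and the ticks in exon 7 stand at the same positions in both copies.

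The signal of this sequence was listed mostly under Gm10184 in WT and mostly under Kpna2 in Dock3 KO. Kpna2 had 10.1, 8.46 and 4.30 normalized counts in the WT muscles (replicates 1, 3 and 4). The Dock3 KO muscles (replicates 1, 2 and 3) had 151, 198 and 199. All 3 Dock3 KO samples were high, and the lowest of them lay far above the highest WT sample. Gm10184 had 402, 406 and 509 in the WT muscles. It stood at 10.6 in Dock3 KO replicate 1 and was listed at 0 in replicates 2 and 3. WT replicate 4, with the most Gm10184, had the least Kpna2, and Dock3 KO replicate 1, with some Gm10184 left, had the least Kpna2 of its group.

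Means were 7.61 ± 2.98 and 183 ± 27.6 for Kpna2 and 439 ± 60.9 and 3.54 ± 6.14 for Gm10184 (WT and Dock3 KO, SD, n = 3 each). The Kpna2 mean was 24.0 times as high in Dock3 KO. On the log2(normalized count + 1) scale the difference, Dock3 KO minus WT, was 4.47 (standard error 0.367) for Kpna2 and -7.59 (standard error 0.819) for Gm10184. These values chose the pair and carry no test. The size of both depends on the pseudocount: with 10 in place of 1 they were 3.45 and -5.13, and with 0.1 the Gm10184 difference was -9.84. In 16.2% of the 16031 genes tested the groups did not overlap. The submitters' processing notes name Salmon 0.12.0, with no role given. How reads shared by both genes were assigned is not described in the sources used here, and its part in these values was not tested. The labels do not give the strain of the Dock3 KO mice, so the Dock3 genotype and any difference in strain, including at either copy, cannot be told apart in the values of this pair.

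The genes were also summed, since a read moved from one to the other leaves the sum as it is, apart from any correction for length, which the sources used here do not describe. The sum was 412, 414 and 514 normalized counts in the WT muscles (replicates 1, 3 and 4). The Dock3 KO muscles (replicates 1, 2 and 3) had 161, 198 and 199. The groups did not overlap, and every Dock3 KO sum was below every WT sum. Means were 447 ± 58.0 for WT against 186 ± 21.5 for Dock3 KO (SD, n = 3 each), so that the Dock3 KO mean was 0.417 of the WT mean, with a log2 difference of -1.26. The Kpna2 mean was higher by 175 normalized counts in Dock3 KO, which is 40.2% of the 435 by which the Gm10184 mean was lower. Gm10184 made up 97.6%, 98.0% and 99.2% of the sum in WT, and 6.59%, 0% and 0% in Dock3 KO. In bulk muscle, fewer cells of a type and less RNA per cell cannot be told apart.

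**Figure D2:**
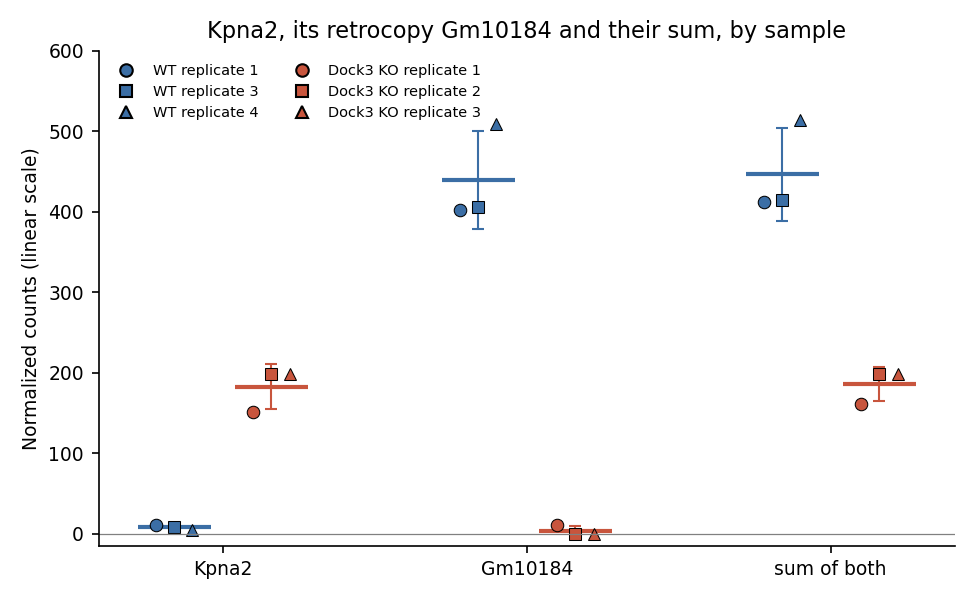
Normalized counts of Kpna2, Gm10184 and their sum in each of the 6 samples (linear axis; WT blue, Dock3 KO red; horizontal lines are group means and bars the SD, n = 3). The sum lies at 412 or above in WT and at 199 or below in Dock3 KO.

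Little signal was listed under other annotated copies. Beside Gm10184, 11 copies of Kpna2 in the same orientation were found in the annotation, 4 of them near-identical (95% identity or more, with 50% or more of the shorter transcript aligned). Of the 11, 8 were listed at 0 in all 6 samples, Gm10259 among them, and the highest value of any was 4.65 normalized counts, in Kpna2-ps in Dock3 KO replicate 3. Of the windows of 31 bases in Gm10259, 98.0% also occur in Kpna2 or Gm10184, so its listed 0 does not show that it has no transcript. The near-identical Gm12919 was at 2.47 in WT replicate 4 and at 0 in the other 5 samples. The near-identical Gm13310 and Gm44018 were at 0 throughout. With all 11 copies added, the sum was 449 ± 59.2 for WT against 189 ± 24.1 for Dock3 KO (SD, n = 3 each).

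Kpna2 is often read as a sign of dividing cells, so markers of those were set beside it. The 6 markers Mki67, Top2a, Ccnb1, Cdk1, Birc5 and Aurkb summed to 28.8 to 68.6 normalized counts in WT and to 52.3 to 92.2 in Dock3 KO, and the groups overlapped. Both that were abundant enough to test, Mki67 and Top2a, did not pass. Satellite cell markers (Pax7, Myf5, Cdh15 and Vcam1) summed to 530 to 548 in WT and 395 to 531 in Dock3 KO, and none of the 4 passed. These sums overlapped by a small margin (lowest WT 530.0, highest Dock3 KO 530.5). The log2 differences were -1.09 for Pax7, -0.32 for Myf5, -0.33 for Cdh15 and 0.16 for Vcam1, and the groups were apart only for Cdh15. The part of dividing and satellite cells in the Kpna2 values was not tested. Dock3 KO replicate 3, whose share of Gm42418 and Lars2 was near that of WT, had 199 normalized counts of Kpna2 and 0 of Gm10184, and replicate 2, with its high share, had 198 and 0. Replicate 1, also with a high share, had the lowest Kpna2 of its group (151) and the one Gm10184 value above 0 in Dock3 KO (10.6).

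The remaining importins were compared between genotypes with limma on log2(normalized count + 1), over the 16031 genes whose mean reached 10 normalized counts, and the Benjamini-Hochberg adjustment ran over all of them. Of all genes tested, 165 (1.03%) had an adjusted p under 0.05. Of the 5 importins chosen by family name, 0 passed, and 0 had an unadjusted p under 0.05, against 10.5% of all genes tested. In none of the 5 were the groups apart, against 16.2% of all genes tested, and with 5 genes these counts do not set the importins apart from other genes.

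Kpna3 and Kpna4 form a closely related pair of importin alphas, with 75.4% identity of their coding sequences. Kpna3 (ENSMUSG00000021929, chromosome 14, 61365211 to 61439874, minus strand) had 3778, 3199 and 3943 normalized counts in the WT muscles, against 3809, 4671 and 3436 in the Dock3 KO muscles. Its log2 difference was 0.12 (95% interval -0.21 to 0.45, limma adjusted p 0.859). Kpna4 (ENSMUSG00000027782, chromosome 3, 69067149 to 69127113, minus strand), overlapped by Gm22009 and Gm37558 on the same strand, had 3355, 2805 and 3037 in the WT muscles, against 3152, 4141 and 3295 in the Dock3 KO muscles. Its log2 difference was 0.20 (95% interval -0.12 to 0.51, limma adjusted p 0.715). For both genes Dock3 KO replicate 2 was the highest sample and WT replicate 3 the lowest.

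Kpna1 and Kpna6 form another related pair, with 75.3% identity of their coding sequences. Kpna1 (ENSMUSG00000022905, chromosome 16, 35978750 to 36037131, plus strand), overlapped by Gm15564 on the other strand, had 4014, 3318 and 3732 normalized counts in the WT muscles, against 3365, 4944 and 3571 in the Dock3 KO muscles. Its log2 difference was 0.09 (95% interval -0.28 to 0.45, limma adjusted p 0.919). Kpna6 (ENSMUSG00000003731, chromosome 4, 129643980 to 129672767, minus strand) had 2001, 1861 and 1600 in the WT muscles, against 1554, 1824 and 1703 in the Dock3 KO muscles. Its log2 difference was -0.10 (95% interval -0.40 to 0.20, limma adjusted p 0.870). It was the one importin of the 5 whose estimate lay below 0, and Dock3 KO replicate 1 was its lowest sample.

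Kpnb1, the import receptor that importin alphas dock to (ENSMUSG00000001440), spans bases 97159714 to 97187881 of chromosome 11, on the minus strand. It had 1642, 1569 and 1581 normalized counts in the WT muscles, against 1451, 1875 and 1733 in the Dock3 KO muscles. The Dock3 KO values spread on both sides of the narrow WT range, with a log2 difference of 0.07 (95% interval -0.22 to 0.36, limma adjusted p 0.918). Dock3 KO replicate 2 was the highest sample for 4 of the 5 importins, all except Kpna6. Without it the differences of Kpna1, Kpna3 and Kpnb1 were -0.08, -0.0031 and -0.01, and with all samples rescaled to the same total those of Kpna1, Kpna3, Kpna4 and Kpnb1 were -0.19, -0.16, -0.08 and -0.21, so the sign of these small differences was not fixed. A p that misses the threshold does not show equal levels, and the intervals give the changes these 6 samples allow.

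Levels were compared between genes per kilobase of the longest annotated transcript. The order, and the totals and shares given after it, depend on these lengths, and which transcripts the muscle makes was not tested. Lengths were 4.069 kb for Kpna3, 5.039 kb for Kpna1 and 8.819 kb for Kpna4. Before division by length their WT means were closer, at 3640, 3688 and 3066 normalized counts. Kpna3 was highest, with 786 to 1148 normalized counts per kilobase over the 6 samples, followed by Kpna1 with 659 to 981. Their ranges overlapped, but Kpna3 was above Kpna1 in 6 of 6 samples. Kpna4, at 318 to 470 per kilobase, lay below the range of Kpna1. Kpna6, at 272 to 350, overlapped with Kpna4 and was below it in 5 of 6 samples. Kpnb1, at 246 to 318, overlapped with Kpna6 and was below it in 6 of 6. Kpna2 and Gm10184 together came last in all 6 samples, at 207 to 258 per kilobase in WT and 78.7 to 96.9 in Dock3 KO. In neither genotype did their range reach that of Kpnb1. Kpna7, an importin alpha known from the egg and early embryo, was at 0.469 normalized counts in WT replicate 1, at 2.88 in Dock3 KO replicate 2 and at 0 in the other 4 samples.

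**Figure D3:**
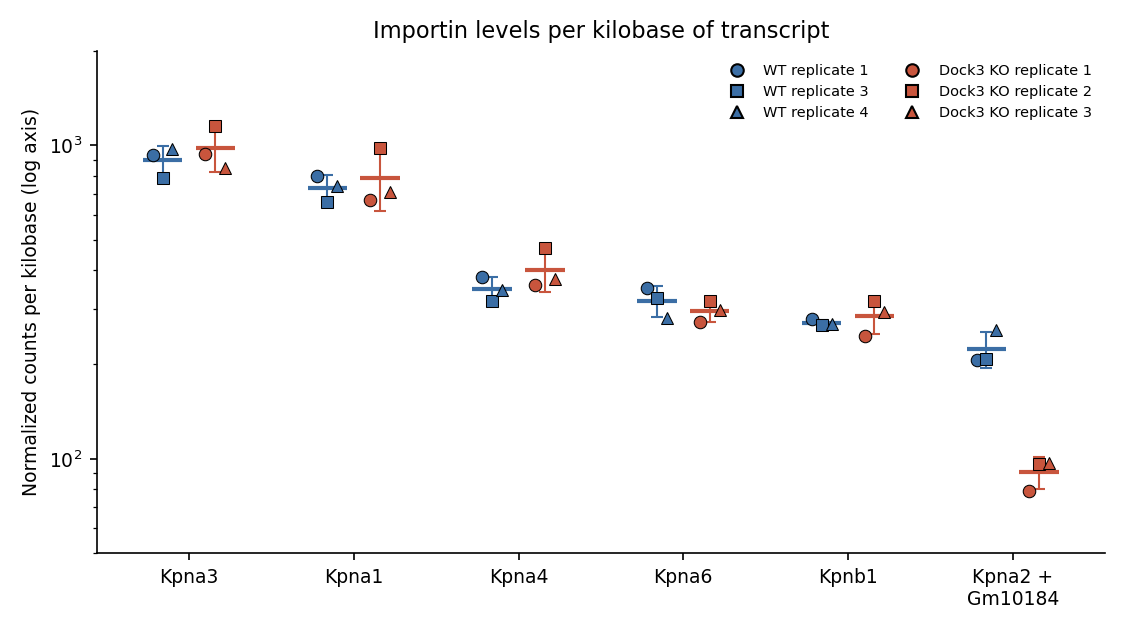
Normalized counts per kilobase of transcript (log axis) for the importins and for Kpna2 and Gm10184 together, by sample (WT blue, Dock3 KO red; lines are group means and bars the SD, n = 3). The genotypes overlap for Kpna3, Kpna1, Kpna4, Kpna6 and Kpnb1 and are apart for the Kpna2 and Gm10184 sum.

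The importin alpha transcripts together, per kilobase, overlapped between the genotypes. Their total was 2517 ± 194 for WT against 2550 ± 403 for Dock3 KO (SD, n = 3 each), and its ratio to Kpnb1 was 9.28 ± 0.570 and 8.92 ± 0.891. Within that total, Kpna2 and Gm10184 together held 7.78%, 9.06% and 9.96% in WT and 3.41%, 3.20% and 4.17% in Dock3 KO. Kpna2 alone held 0.184%, 0.179% and 0.0808% in WT and 3.17%, 3.20% and 4.17% in Dock3 KO. Kpna3 held the largest share, 34.2% to 37.4% in WT and 36.4% to 40.5% in Dock3 KO, with overlap. Kpna4 held 13.3% to 14.3% in WT and 15.5% to 16.1% in Dock3 KO, without overlap. Shares of one total are tied to each other, so the other shares move when that of the pair does.

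**Figure D4:**
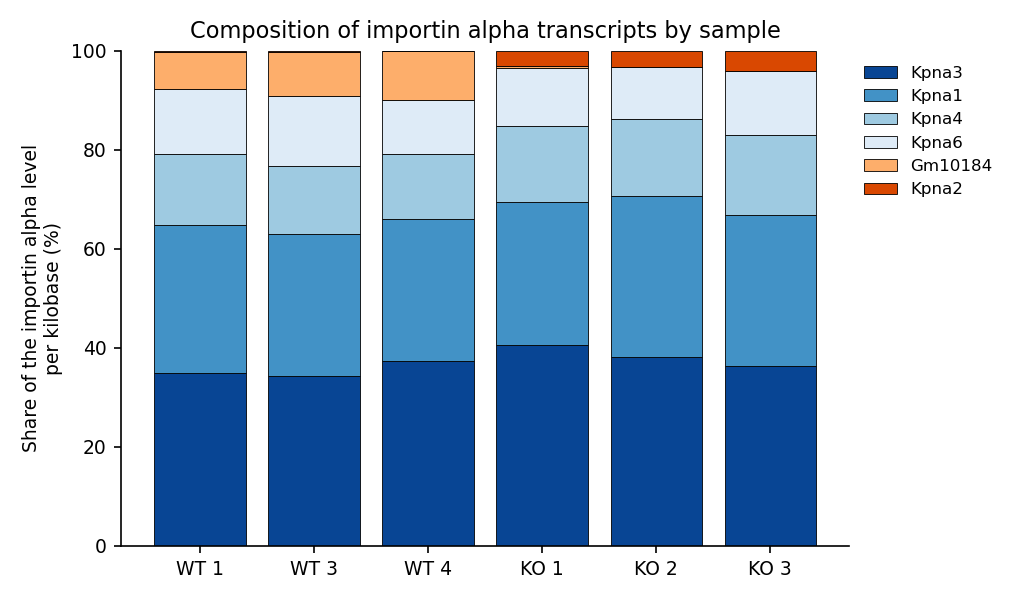
Share of each importin alpha transcript in the importin alpha level per kilobase (stacked bars to 100%), 1 bar per sample. Kpna3 and Kpna1 make up most of each bar, Gm10184 is visible in the 3 WT bars (7.59% to 9.88%) and Kpna2 in the 3 Dock3 KO bars (3.17% to 4.17%).

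The rest of the nuclear transport machinery was read from a list of 58 genes, of which 56 were abundant enough to test. Of these, 0 passed an adjusted p of 0.05 (limma), against 1.03% of all genes tested. An unadjusted p under 0.05 (limma) was found for 3, which is 5.36% against 10.5% of all genes tested. The groups did not overlap in 7 of the 56, and in 16.2% of all genes tested. With 56 genes, these counts do not set the list apart from other genes. The median log2 difference of the list was -0.03, beside -0.01 for all genes tested. In total, 27 differences lay above 0 and 29 below. By role, the medians were 0.12 for 13 import receptors and adaptors, -0.05 for 7 exportins, -0.07 for 8 genes of the Ran cycle and -0.01 for 28 nuclear pore genes. Of each of these groups, 0 genes passed.

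The genes with the lowest p of that list were Ipo4, Nup214 and Nutf2. Ipo4, an import receptor that carries histones among other cargo, had 900, 961 and 1033 normalized counts in the WT muscles, against 618, 631 and 715 in the Dock3 KO muscles, without overlap. Its log2 difference was -0.56 (standard error 0.132) with an unadjusted p of 0.00177 and an adjusted p of 0.111 (limma). Nup214, a nucleoporin on the cytoplasmic face of the pore, had 399, 359 and 384 in the WT muscles, against 424, 553 and 565 in the Dock3 KO muscles (log2 difference 0.42, limma adjusted p 0.365). Nutf2, which carries Ran into the nucleus, had 48.7, 101 and 92.3 in the WT muscles, against 105, 178 and 140 in the Dock3 KO muscles (log2 difference 0.83, limma adjusted p 0.373). In these 2 genes the groups were also apart, for Nutf2 by a small margin.

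**Figure D5:**
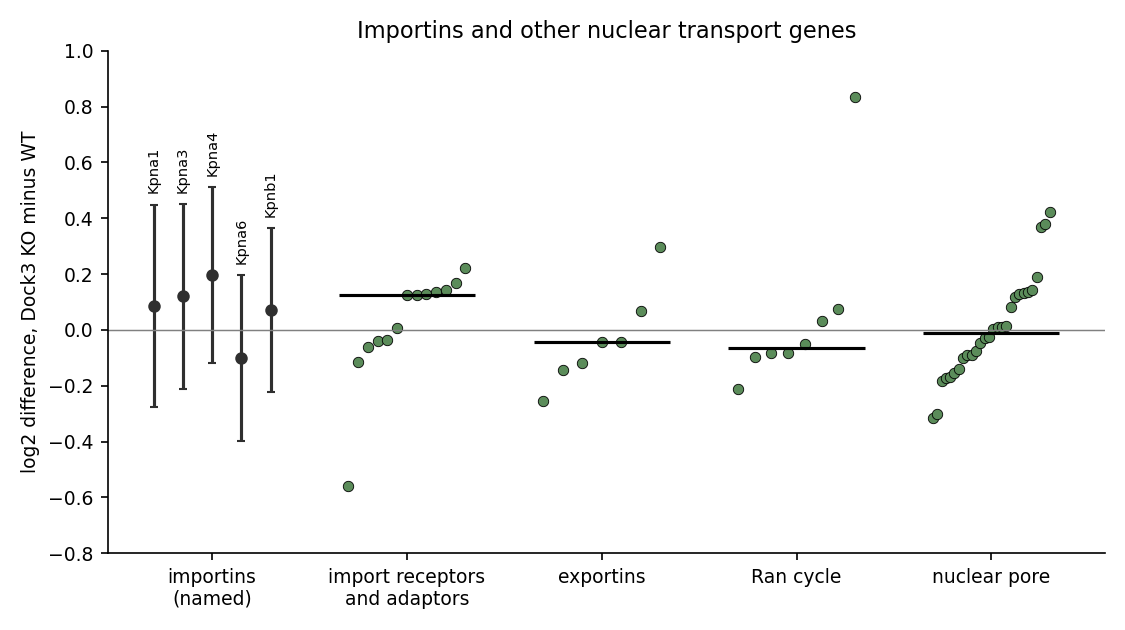
Log2 difference, Dock3 KO minus WT, for the 5 importins chosen by family name (points with 95% intervals from limma) and for the 56 tested genes of the nuclear transport list by role (points; black lines are group medians). All 5 intervals include 0, and most points lie near 0, with Ipo4 lowest at -0.56 and Nutf2 highest at 0.83.

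Genes on either side of Kpna2 on the chromosome were looked up after the pair's values were seen. Neighbours of Gm10184 on chromosome 17 are not given here. The 3 tested genes nearest to Kpna2 on each side are Smurf2, Cep95 and Ddx5 toward lower coordinates and 1810010H24Rik, Bptf and Nol11 toward higher ones, within 199 kb. In all 6 the groups overlapped and 0 passed. Of all genes tested, the groups were apart in 16.2% and 1.03% passed, so these counts do not set the 6 neighbours apart from other genes. Smurf2, a ubiquitin ligase 67.9 kb from Kpna2, had 902, 656 and 676 normalized counts in the WT muscles, against 708, 893 and 776 in the Dock3 KO muscles (limma adjusted p 0.909). Bptf, a chromatin remodelling subunit 33.5 kb away, had 919, 774 and 810 in the WT muscles, against 890, 1018 and 1149 in the Dock3 KO muscles (limma adjusted p 0.538).

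The genes whose values followed Kpna2 most closely over the 6 samples, by Pearson's r of log2(normalized count + 1), were Yjefn3 (0.997), Dennd6b (0.996), 2610044O15Rik8 (0.993), Mfn2 (0.993) and Atp5a1 (0.990). These are descriptions, because with 6 samples in 2 groups any gene that differs between genotypes with little spread scores high. Mfn2, a mitochondrial fusion protein, had 5024, 5110 and 4577 normalized counts in the WT muscles, against 7168, 6987 and 7073 in the Dock3 KO muscles. Atp5a1, a subunit of mitochondrial ATP synthase, had means of 28100 ± 455 and 31680 ± 473 (SD, n = 3 each), a 1.13-fold difference. In all 5 genes the groups were apart, with log2 differences from 0.17 to 1.53, each smaller than that of Kpna2.

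Those closest to Gm10184 were AC170187.1 (0.999), Tma7-ps (0.994), Inpp5j (0.994), Gm49167 (0.994) and Pyroxd2 (0.992). They were picked by their likeness to Gm10184 over the same samples. A pattern shared with it, also within Dock3 KO, therefore follows from that choice. AC170187.1 and Tma7-ps are processed pseudogenes, and like Gm10184 they were listed at 0 in Dock3 KO replicates 2 and 3 and above 0 in replicate 1. AC170187.1 stood at 20.7, 17.8 and 24.9 in WT and 2.68 in Dock3 KO replicate 1. Tma7-ps stood at 24.8, 15.5 and 27.4 in WT and 2.86 in Dock3 KO replicate 1. Inpp5j, an inositol phosphatase, had 48.5, 55.2 and 50.2 in the WT muscles, against 25.8, 14.3 and 12.9 in the Dock3 KO muscles, so that replicate 1 was again the highest of its group.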

How the data were processed

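The authors deposited 1 table of normalized counts per Ensembl gene for the 6 samples, recorded here as a signal, since the values are not whole and have no fixed sum. FastQC, Trim Galore 0.4.5, Salmon 0.12.0, DESeq2 1.22.1 and R 3.5.3, with builds mm10 and GRCm38, are named in the submitters' processing notes, with no role given. Ribosomal RNA was depleted and libraries were stranded and read in pairs, per the labels' protocols. The treatment of reads that match several genes, the annotation and the number of reads are not given in the sources used here, so no counting interval is printed and precision rests on 3 samples per group.

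All 54393 rows matched GENCODE M21 (GRCm38), which gave symbols, types, 1-based positions and transcript sequences. Nup42 and Nup58 of the transport list were matched through RefSeq synonyms (GRCm38.p6), which also gave the RefSeq gene type of Gm10184. Values were set to log2(normalized count + 1), genes with a mean of at least 10 were kept, and genotypes were compared with limma 3.58.1 in R 4.3.3 (prior variance with a trend, no covariates, Benjamini-Hochberg over all genes tested, threshold 0.05). The step was checked on simulated data. Copies were searched with blastn 2.17.0 (at least 100 aligned bases), coding sequences were aligned with biopython 1.88, and tables and plots were made with pandas 2.3.3 and matplotlib 3.10.9 in Python 3.11.15. The planned identity between proteins was replaced by that between coding sequences.

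The 7 members, the transport list and the marker lists were chosen with earlier results of these data known. The text names Dock3, the members, their near-identical copies, genes of the transport list past the threshold or, with none, the 3 lowest p, and the 5 genes most like Kpna2 and Gm10184. Other names, such as the neighbours, were chosen after their values were seen. Gene by gene, 2 groups of 3 were compared in the fit over all genes, and alternatives were other pseudocounts, filters, scalings, prior variances, a replicate block and leaving out each sample.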

Additional observations from a re-analysis of the deposited data

How the results depend on the processing

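Over 16 alternatives, 0 of the 5 importins and 0 of the 56 transport genes passed the threshold, with limma adjusted p-values of the importins from 0.362 to 1.0. The count of 165 genes stayed between 127 and 221 except for a prior variance without trend (104 genes, 94 of them among the 165) and when samples were left out (100 to 159, 100 with WT replicate 4 left out and 102 with Dock3 KO replicate 2 left out). Its share of higher genes, 43.0%, was 32.7% without trend, 23.2% with the same total for all samples and 31.9% with the same total apart from Gm42418 and Lars2. These 2 scalings moved the median of all genes to -0.28 and -0.11.

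Kpna2 (12 alternatives, 3.45 to 4.68), Gm10184 (-9.84 to -5.13) and their sum (-1.53 to -1.15) kept their signs. The pair was chosen by these values and its groups lay far apart, so the kept signs add no support. A pseudocount of 10 gave 3.45 for Kpna2 and -5.13 for Gm10184, a pseudocount of 0.1 gave -9.84 for Gm10184, and the same total gave -1.53 for the sum. Leaving out 1 sample gave 4.15 to 4.68, -8.77 to -7.00 and -1.31 to -1.15.

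Small importin differences turned below 0 with the same total (Kpna1 -0.19, Kpna3 -0.16, Kpna4 -0.0791, Kpnb1 -0.21), with the same total apart from Gm42418 and Lars2 (Kpna1 -0.0173, Kpnb1 -0.0329), with quantile normalization (Kpna1 -0.0015) and without Dock3 KO replicate 2 (Kpna1 -0.0849, Kpna3 -0.0031, Kpnb1 -0.0104). Leaving out 1 sample gave -0.0849 to 0.19 for Kpna1, -0.0031 to 0.22 for Kpna3, 0.08 to 0.27 for Kpna4 and -0.0104 to 0.17 for Kpnb1, and -0.19 to -0.03 for Kpna6, which stayed below 0 in all 16 alternatives.

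A fit with a replicate block called 127 genes, of which 100 were shared with the 165, and gave -0.0742 for Kpna1 and -0.0176 for Kpnb1. The deviations of same-numbered samples correlated at 0.0649 and 0.0066 across genes. No differently numbered samples were set beside them, so these values cannot decide whether same-numbered samples share more than a number. Causes of these shifts were not tested. Groups of 3 samples and the unknown number of reads limit what differences of the size seen in Kpna1, Kpna3, Kpna4, Kpna6 and Kpnb1 can be told from 0.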

Other observations

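From the 16031 genes tested, those with at least 50 normalized counts in each WT sample were taken. Of these, 7 were listed at 0 in Dock3 KO replicates 2 and 3, Gm10184 among them. The others were Gm12191, Rpl3-ps1, Gm8210, Gm9825, Gm19791 and Gm43108, and Gm10184 was the one of the 7 annotated as protein-coding. The filter follows the pattern of Gm10184, so its place among the 7 follows from that choice. Genes with the opposite pattern were not searched for. In Dock3 KO replicate 1, 5 of the 7 were also at 0. Gm10184 stood there at 2.42% of its WT mean and Gm43108, annotated as awaiting experimental evidence, at 23.9% (13.6 normalized counts). Dock3 itself stood at 14.98% of its WT mean in the same sample, against 1.19% and 1.03% in Dock3 KO replicates 2 and 3.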
